A study of Mus musculus with 8 samples.

Results

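T and NK cells, the lymphocytes that recognise antigen through the T cell receptor or kill target cells without it, made up 154 of the 50254 cells kept from single-cell RNA-seq of mouse brain cortex, or 0.306%. A cell was counted among them when at least 2 of 6 genes were detected in it: Cd3d, Cd3e and Cd3g, which encode signalling chains of the T cell receptor complex, Trbc2, a T cell receptor beta constant region, Nkg7, a protein of cytotoxic granules, and Il2rb, a receptor chain for interleukin-2 and interleukin-15. Cells with transcripts of B cells (Cd79a and Cd79b summing to 10 or more), endothelium (Cldn5, Flt1 and Pecam1, 20 or more), microglia and macrophages (C1qa and C1qb, 20 or more) or neutrophils (S100a8 and S100a9, 50 or more) were left out, all in UMIs per 10000 of the cell, abbreviated CP10k. The cells were thus selected on measured counts of these genes, whose levels are given only as a description. In all, 56961 barcodes were deposited in 7 distinct libraries, and a barcode was kept with at least 500 genes and less than 15% mitochondrial UMIs.

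The study compared mice lacking laminin alpha chains of the vascular basement membrane with wild-type (WT) mice. One experiment held Lama4-/- mice, which lack the laminin alpha 4 chain, and the WT mice used as their controls. The other held Tek-Cre:Lama5-/- mice, in which Cre recombinase under the Tek (Tie2) promoter removes the laminin alpha 5 chain, and a separate set of WT controls. All mice were 8 weeks old and were perfused with ice-cold PBS, and the brains of 3 mice were pooled in each group before enzymatic digestion for 60 min at 37 °C. Each group is listed as 2 samples, which draw on 1 such pool, so the p-values below compare pools and their spread leaves out the variation between mice. The Tek promoter is active in endothelium and also in many blood cells, so Tek-Cre does not limit the deletion to vessels. Both Lama4-/- samples hold the same matrix and were counted as 1 library, which leaves that genotype without a replicate and without a test. Neither the labels nor the files give a replicate of an experiment, so everything that differs between the 2 experiments, such as the day of preparation, cannot be told apart from the mice.

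Few T and NK cells reside in healthy brain. Those that pass between blood and lymphoid organs express the chemokine receptor Ccr7 and the sphingosine-1-phosphate receptor S1pr1, whereas cells that settle in tissue typically lose these and express Cxcr6, Cd69 and Rgs1. Laminins of the vessel wall are known as barriers and guides for lymphocytes that leave the blood, which bind them mainly through integrins that contain the beta 1 chain, Itgb1.

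Lama4 and Lama5 transcripts in endothelial cells followed the labels. Lama4 stood at 0.467 and 0.449 CP10k in the 2 Lama4 control samples and at 0.000555 (1 UMI) in the Lama4-/- library. Lama5 stood at 0.429 and 0.420 CP10k in the 2 Lama5 control samples and at 0.247 and 0.273 in the Tek-Cre:Lama5-/- samples, lower but present in both. In the T and NK cells no Lama4 UMI was seen and only 2 of the 7 libraries held a Lama5 UMI, 1 each. The libraries held 35479306 to 48314458 UMIs. The T and NK cells contributed 116174 to 161824 UMIs per library in the Lama4 experiment and 56090 to 85702 in the Lama5 experiment, with a median of 4984 to 6562 UMIs per cell against 2926 to 3806. Fewer counts per cell in the Lama5 experiment mean less power for scarce genes there. No barcode of a T or NK cell occurred in more than 1 library, and 5 to 24 barcodes were shared between pairs of libraries among all kept cells.

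The label was checked on genes that the selection did not use. Ptprc (CD45), the pan-leukocyte phosphatase, was detected in 142 of the 154 cells (92.2%), and between 76.9% and 100% per library, against 0.672% to 1.50% of endothelial cells, whose median depth was 2766.5 to 6115 UMIs. Ptprc does not separate lymphocytes from other leukocytes: it was detected in 56.3% to 72.4% of microglia and macrophages and in all neutrophils. Lck, a kinase of T and NK cell receptor signalling, was detected in 23.1% to 85.7% of the T and NK cells per library, 0% to 7.89% of B cells, at most 0.807% of microglia and macrophages, and no neutrophil. Bcl11b, a transcription factor of T cells, was detected in 28.6% to 56.5% of the T and NK cells, at most 0.262% of microglia and macrophages, and no B cell or neutrophil. Every cell held at least 4 of 18 pan-leukocyte and lymphocyte genes, with a median of 13. At the edge of the selection, 33 of the 36 cells with exactly 2 of the 6 genes held Ptprc, compared with 17 of the 47 otherwise eligible cells with only 1, which were left out. A further 16 cells had 2 or more of the genes but failed a limit on another cell type. None of the barcodes below 500 genes, 258 to 622 per library, met the rest of the definition.

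As a percentage of all kept cells, T and NK cells were higher in the 3 libraries of the Lama4 experiment than in the 4 of the Lama5 experiment, and no difference between a laminin mutant and its own controls was larger than the error of the single libraries. In the Lama4 control samples they made up 0.411% (23 of 5594 cells, 95% Clopper-Pearson interval 0.261 to 0.616) and 0.431% (23 of 5332, 0.274 to 0.647), and in the Lama4-/- library 0.504% (27 of 5355, 0.333 to 0.733). The 3 intervals overlap. In the Lama5 control samples the share was 0.234% (20 of 8556, 0.143 to 0.361) and 0.164% (14 of 8527, 0.0898 to 0.275), and in the Tek-Cre:Lama5-/- samples 0.252% (21 of 8337, 0.156 to 0.385) and 0.304% (26 of 8553, 0.199 to 0.445). Both mutant values lay above both control values, with a mean of 0.278% ± 0.0368 against 0.199% ± 0.0492 (SD, n = 2 each), but the intervals of the single libraries overlap. The exact permutation test over libraries gave p = 0.333, two-sided, which is the smallest that 2 samples against 2 can give. The difference of 0.0790 percentage points became 0.0019 when 3 of the 6 selecting genes were required and 0.0459 with cells thinned to 1000 UMIs. The controls of the Lama5 experiment held 0.472 times the share of the Lama4 controls, 0.199% against 0.421% ± 0.0143, again with an exact permutation p of 0.333. All intervals here cover counting error only. Of the cells outside the endothelial class, they made up 0.757% and 0.782% in the Lama4 controls, 0.985% in the Lama4-/- library, 0.669% and 0.475% in the Lama5 controls, and 0.684% and 0.824% in the Tek-Cre:Lama5-/- samples, so that by this measure the libraries of the experiments overlapped. Shares of kept cells also depend on how many other cells were captured: 8337 to 8556 cells were kept per library in the Lama5 experiment and 5332 to 5594 in the Lama4 experiment.

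Set against the other blood leukocytes, T and NK cells were a smaller part in the Lama4 control samples than in the other 5 libraries. They made up 21.7% and 25.0% of the sum of T, NK, B and neutrophil cells in the Lama4 controls, 46.6% in the Lama4-/- library, 54.1% and 58.3% in the Lama5 controls, and 55.3% and 60.5% in the Tek-Cre:Lama5-/- samples. The difference came with the other classes: the Lama4 controls held 38 and 40 B cells and 45 and 29 neutrophils, and the Lama4-/- library 18 and 13. In the Lama5 experiment, 6 to 14 B cells and 3 to 6 neutrophils were counted per library. The interval of the Lama4-/- library (27 of 58 cells, 33.3 to 60.1) overlapped that of control sample 2 (16.6 to 35.1) and lay above that of control sample 1 (14.3 to 30.8). Whether cells left in the vessels after perfusion contribute to these counts was not tested.

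**Figure D1:**
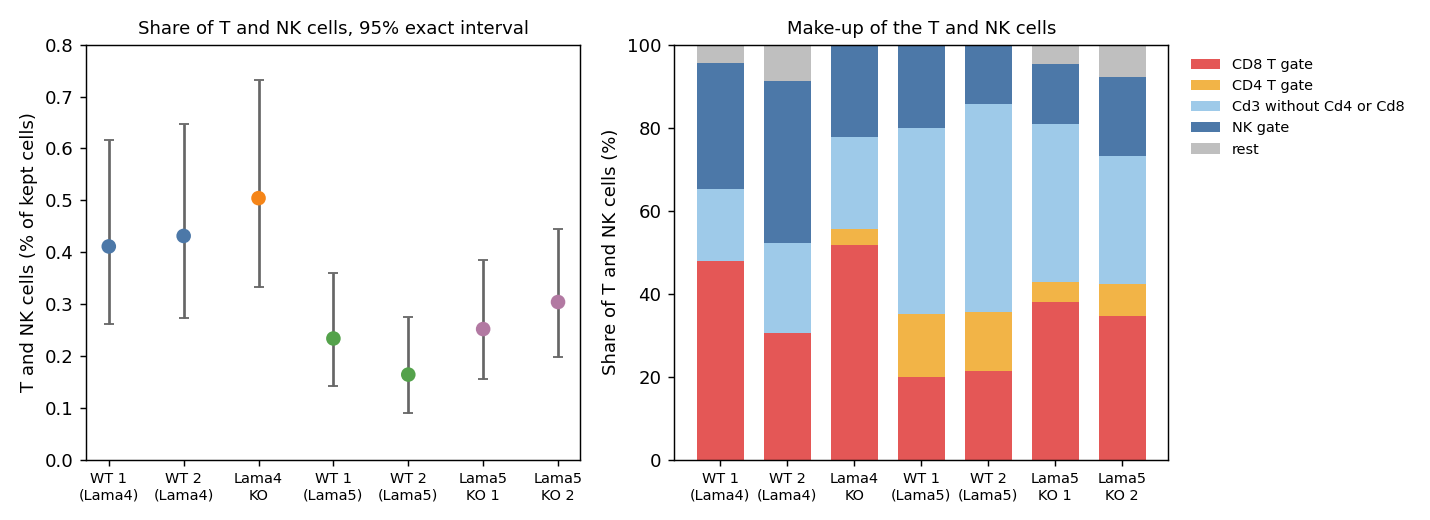
T and NK cells in each of the 7 libraries, as a percentage of all kept cells with 95% Clopper-Pearson intervals, and the percentage of them in each subset, with the experiment named in brackets for the WT controls. The Lama4 experiment sits at 0.411% to 0.504% and the Lama5 experiment at 0.164% to 0.304%, and cells with Cd8a or Cd8b1 are the largest subset in the Lama4-/- library (14 of 27).

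CD8 T cells, with a Cd3 gene and Cd8a or Cd8b1 (the chains of the CD8 co-receptor), were the largest subset with 56 cells. Another 47 cells held a Cd3 gene with neither Cd4 nor CD8 transcripts, a class that also takes in CD4 and CD8 T cells whose co-receptor was not sampled. NK cells, with no Cd3 gene and at least 2 of Ncr1, Klrb1c, Klre1, Klrd1, Klrk1, Eomes and Gzma, numbered 36. Only 9 cells were CD4 T cells, and 6 fell in no subset. Foxp3, which defines regulatory T cells, was detected in no cell of any library.

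The CD8 subset held 47.8% (11 of 23) and 30.4% (7 of 23) of the T and NK cells in the Lama4 controls and 51.9% (14 of 27) in the Lama4-/- library, a difference of 12.7 percentage points beside an SD of 12.3 between the controls. Without control sample 1 or 2 the difference was 21.4 or 4.03, and with cells thinned to 1000 UMIs it was 20.8 (5 of 23 and 4 of 22 cells against 11 of 27). The NK subset held 30.4% and 39.1% of them in the Lama4 controls and 22.2% (6 of 27, interval 8.62 to 42.3) in the Lama4-/- library, and this interval takes in both control values. In the Lama5 controls the CD8 subset held 4 of 20 and 3 of 14 cells, and in the Tek-Cre:Lama5-/- samples 8 of 21 and 9 of 26. Both mutant samples were higher, by 15.6 percentage points on average (36.4% ± 2.46 against 20.7% ± 1.01, SD, n = 2 each, exact permutation p = 0.333), but with every cell thinned to 1000 UMIs the difference was 0.43. The NK subset did not separate these groups, with 4 of 20 and 2 of 14 cells in the controls and 3 of 21 and 5 of 26 in the mutants (exact permutation p = 1).

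T and NK cells of Tek-Cre:Lama5-/- cortex differed from their controls in 1 of 866 genes tested, or 0.115%. That gene was Gm42418, a non-coding RNA gene on chromosome 17 (39846958 to 39848788, plus strand, GRCm38) whose locus holds sequence of the ribosomal RNA repeat and overlaps AY036118 on the other strand (39847113 to 39848035). Gm42418 stood at 336 and 349 CP10k in the Lama5 controls and at 620 and 575 in the mutants. The groups did not overlap, with means of 342 ± 8.67 and 597 ± 31.4 (SD, n = 2 each), and edgeR's quasi-likelihood test gave a log2 fold change of 0.84 ± 0.0881 (SE) with an adjusted p of 5.4e-05. The call was lost when at least 3 of the 6 selecting genes were required (adjusted p = 0.0635 by edgeR) and in the fit with sample number as a block (adjusted p = 0.0623).

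Other cells of the same libraries showed the same ordering of Gm42418. Endothelial cells held 343 and 335 CP10k in the Lama5 controls and 611 and 663 in the mutants, microglia and macrophages 232 and 223 against 414 and 448, and B cells 326 and 305 against 437 and 587. In the Lama4 experiment the T and NK cells held 58.2 and 78.3 CP10k in the controls and 62.6 in the mutant library. In all 4 cell classes both mutant libraries of the Lama5 experiment lay above both of their controls.

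No other gene passed, at an unadjusted p below 0.05 for 74 genes. The next in order was Shisa5, an endoplasmic reticulum protein gene of the p53 response, with counts of 42 and 30 in the controls against 15 and 12 in the mutants (log2 fold change -1.52, edgeR adjusted p = 0.163). Bcl2, which protects lymphocytes from apoptosis, had 25 and 11 against 3 and 7 counts (-1.94, edgeR adjusted p = 0.392). Ifrd1, a transcriptional regulator gene, had 11 and 11 against 31 and 32 (1.38, edgeR adjusted p = 0.295). None of these differences was larger than the test's allowance for spread over 866 genes.

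No gene group of T and NK cells held a called gene for the Lama5 deletion, where 1 of 866 genes (0.115%) was called in all. Of the 12 tested genes of T cell identity none passed, and 11 of 12 fold changes were below 0 with a median of -0.38. Over all genes tested, 455 of 866 were below 0 with a median of -0.03. For the 17 tested pan-leukocyte genes the median was -0.48 with 16 below 0, for the 6 NK receptor and factor genes -0.45 with 6 below 0, and for the 4 interferon-response genes -0.71. The 8 tested genes of circulating lymphocytes had a median of -0.07. Ccr7 among them stood at 2.90 and 3.03 CP10k in the controls and 2.26 and 2.92 in the mutants. These ranges overlap at their edge, with a log2 fold change of -0.14. Ccl5, a chemokine secreted by effector T and NK cells, stood at 10.1 and 20.7 CP10k against 38.7 and 17.4, so that its groups overlapped (log2 fold change 0.90, edgeR adjusted p = 0.505). Gm42418 rising as a share of all UMIs, from 3.36% and 3.49% to 6.20% and 5.75%, is part of the denominator of every other gene; leaving it and AY036118 out of the fit brought no call.

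Receptors for laminin were sparse in these lymphocytes, and only Itgb1 had enough counts for the test. Itgb1 stood at 2.77 and 2.85 CP10k in the Lama5 controls and at 1.93 and 1.40 in Tek-Cre:Lama5-/- samples, from 21, 16, 12 and 12 UMIs. Both mutant values were lower, but the log2 fold change of -0.74 ± 0.383 (SE) did not pass (edgeR adjusted p = 0.65). In the Lama4 experiment Itgb1 stood at 4.76 and 3.96 CP10k in the controls and 3.73 in the mutant library. Itga6, the alpha chain of a laminin-binding integrin, had 2 to 11 UMIs per library, and Itga1, the alpha chain of a collagen and laminin receptor, 13, 18 and 19 in the Lama4 experiment and 0 to 3 in the Lama5 experiment. Itga3, Itga7, Itgb4 and Bcam, further laminin receptors, had 0 or 1 UMI in each library. Of the wider group of adhesion and extravasation genes, 8 were tested in the Lama5 comparison, none passed and 8 of 8 fold changes were below 0 (median -0.46). Over all 866 genes tested, 455 were below 0 (median -0.03). The shift was not particular to adhesion genes, with 16 of 17 pan-leukocyte and 11 of 12 T cell identity genes also below 0. Itga4, which pairs with Itgb1 in VLA-4, stood at 1.19 and 2.67 CP10k in the controls and 1.13 and 1.63 in the mutants. Its groups overlapped.

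In the Lama4-/- library, 20 of 1937 genes (1.03%) met a fixed rule of size, with no test possible: at least 30 counts in the 3 libraries, a log2 ratio of at least 1 to the control mean (with 0.5 CPM added) and a Poisson interval clear of both controls. Of these 20 genes, 4 were higher (0.207%) and 16 lower (0.826%). With control sample 1 or 2 left out, 55 or 48 genes met the rule. Of the listed groups, 2 of 5 measured genes of gamma-delta and innate lymphoid cells were past it, both lower (Gata3 and Maf), 1 of 10 activation genes (Icos, lower) and 0 of 15 T cell identity genes. Also past it were 1 higher and 1 lower of 14 effector genes and 1 lower of 13 NK receptor and factor genes. So were 1 lower of 6 CD8, CD4 and regulatory T cell genes and, higher, the 1 measured gene of astrocytes, ependyma and choroid plexus. Gata3, the transcription factor of type 2 lymphocytes, stood at 2.29 (1.61 to 3.15) and 2.24 (1.46 to 3.28) CP10k in the controls and 0.393 (0.144 to 0.855) in the mutant library, all with 95% Poisson intervals. Maf, a transcription factor of helper and gamma-delta T cells, stood at 1.24 and 1.64 against 0.131, a log2 ratio of -3.41, and microglia and macrophages held it at 4.76 times the level in T and NK cells. Icos, a co-stimulatory receptor of activated T cells, stood at 3.40 and 3.87 against 0.983, a log2 ratio of -1.88. Both controls were above the mutant library in each of these genes.

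A few cells carried much of this. Calca, which encodes the peptide CGRP, had the largest ratio, with 76 and 45 UMIs in the controls and none in the Lama4-/- library, but 74 of the 76 and 40 of the 45 came from a single cell each. Cells with at least 3 of the type 2 innate lymphoid genes Gata3, Il1rl1, Rora, Areg and Il13 numbered 3 and 2 in the controls and 1 in the mutant library, and the control cells held 33 of 37 and 16 of 26 Gata3 UMIs. The Gata3 and Calca levels of the controls thus rest largely on 5 cells. Klra9, an inhibitory NK receptor of the Ly49 family, had 18 and 13 UMIs against 2, and its reads could be split with near-identical family members. Gzma, the serine protease granzyme A of cytotoxic granules, was among the 4 higher genes, at 10.1 and 3.27 CP10k in the controls and 13.6 in the mutant library, where 116 of 207 UMIs came from 1 cell. Ttr, the transthyretin gene of the choroid plexus, was higher too (1.42 and 0.861 against 14.2 CP10k), but cells outside all 4 excluded types held it at 64.5 times the level in T and NK cells, and the same ratio for Ccl3 in microglia was 15.3. The genes of tissue residency and of circulating lymphocytes met the rule in 0 of 10 and 0 of 7 measured genes, with Cxcr6 at 3.58 and 3.96 against 2.10 CP10k and Lef1 at 0.433 and 1.38 against 1.97.

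**Figure D2:**
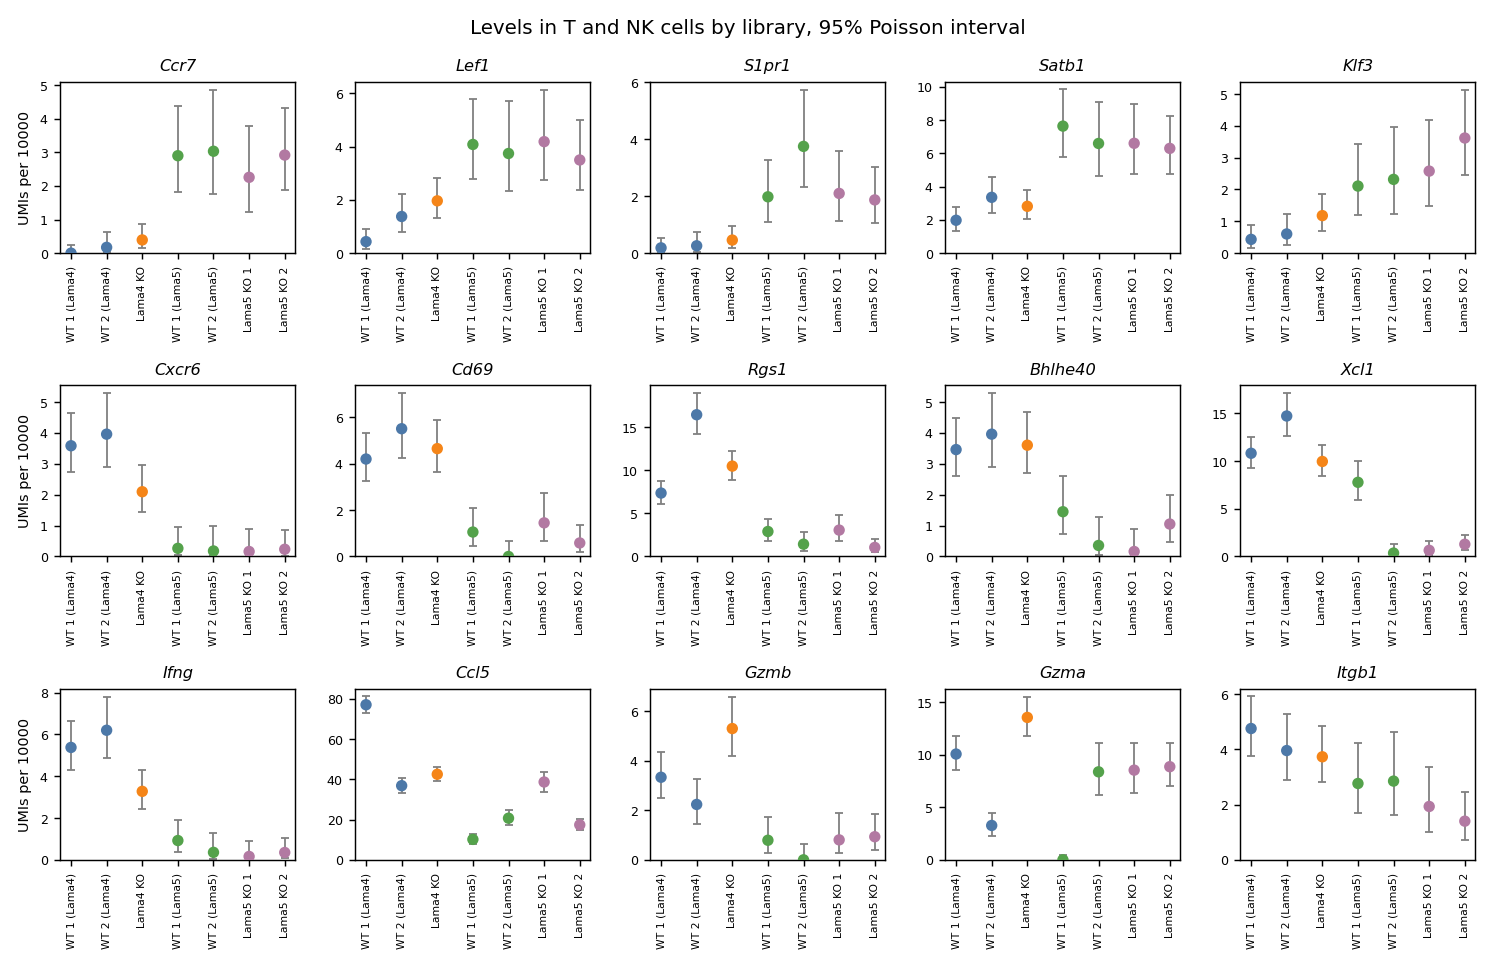
Levels of 15 genes in the T and NK cells of each of the 7 libraries, in UMIs per 10000 (CP10k) with 95% Poisson intervals, coloured by group. Ccr7, Lef1 and S1pr1 are higher in the 4 libraries of the Lama5 experiment, and Cxcr6, Cd69, Rgs1 and Ifng are higher in the 3 libraries of the Lama4 experiment, mutant or control.

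The largest differences lay between the WT controls of the 2 experiments. Of 1395 genes tested in T and NK cells, 123 passed (8.82%), 64 higher in the Lama5 controls (4.59%) and 59 lower (4.23%), and 329 had an unadjusted p below 0.05. Of the listed groups, 5 of 8 tested genes of circulating lymphocytes were higher in the Lama5 controls. Lower there were 7 of 9 of tissue residency, 6 of 12 of effector function, 4 of 8 of activation and 4 of 17 of the response to dissociation. Some genes belong to more than 1 of these groups. Genes in no listed group also passed, such as Tubb2a, Rc3h1 and Tob1 (log2 fold changes 4.01, 3.13 and 2.83) and Sptssa and Apobec3 (-3.37 and -2.65). No mutant is involved here, the genotype is WT on both sides, and experiment, pool and preparation cannot be told apart. The calls also depended on the fit, with 33 by DESeq2, 73 when 3 of the 6 selecting genes were required, and 46 or 48 without Lama5 control sample 1 or 2.

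Of the 8 tested genes of circulating and naive lymphocytes, 5 rose in the Lama5 controls and none fell, with a median log2 fold change of 1.85 beside 0.00 over all genes. Ccr7, which guides lymphocytes to lymph nodes (chromosome 11, 99144196 to 99155077), stood at 0 and 0.172 CP10k in the Lama4 controls, 0.393 in the Lama4-/- library, 2.90 and 3.03 in the Lama5 controls, and 2.26 and 2.92 in the Tek-Cre:Lama5-/- samples. The libraries of the 2 experiments do not overlap. The Lama4 controls held 2 Ccr7 UMIs against 39 in the Lama5 controls, a ratio of 41.1 with a counting interval of 10.6 to 351, and edgeR's quasi-likelihood test gave a log2 fold change of 5.21 ± 0.664 (SE, adjusted p = 6.0e-06). S1pr1, which draws lymphocytes out of tissue, stood at 0.185 and 0.258 CP10k against 1.98 and 3.74 (log2 fold change 3.68, edgeR adjusted p = 8.0e-05). Lef1, a transcription factor of naive T cells, stood at 0.433 and 1.38 against 4.08 and 3.74 (2.28, edgeR adjusted p = 0.000856). Klf3 and Satb1, transcription factors of quiescent and developing lymphocytes, rose by 2.17 and 1.53. Tcf7, Il7r and Klf2, 3 further genes of naive and memory T cells, did not pass. Other cells of the same libraries also held these transcripts: S1pr1 and Lef1 were at 8.11 and 2.03 times their level here in endothelial cells, and Ccr7 at 3.33 times in B cells, where it was detected in 55.3% and 57.5% of cells in the Lama4 controls and in 66.7% and 83.3% in the Lama5 controls.

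Of the 9 tested genes of tissue residency, 7 fell and none rose, with a median log2 fold change of -1.85. Cd69 and Nr4a1 are also in the group of activation genes, and Xcl1 in that of effector function. Among 8 tested activation genes, 4 fell and none rose, and 8 of 8 fold changes were below 0 (median -1.40). Residency and activation cannot be separated by these shared genes. Cxcr6, the receptor for the chemokine CXCL16 (chromosome 9, 123806475 to 123811760), stood at 3.58 and 3.96 CP10k in the Lama4 controls, 2.10 in the Lama4-/- library, 0.263 and 0.178 in the Lama5 controls and 0.161 and 0.233 in the Tek-Cre:Lama5-/- samples. It was seen in 14 of 23, 14 of 23 and 9 of 27 cells of the Lama4 experiment and in 1 or 2 cells of each library of the Lama5 experiment. Its log2 fold change was -3.90 ± 0.565 (SE, edgeR adjusted p = 5.0e-05), from 104 against 3 UMIs (ratio 16.5, counting interval 5.48 to 81.1). Cd69, which holds lymphocytes in tissue by removing S1PR1 from the surface, stood at 4.20, 5.51 and 4.65 CP10k in the Lama4 experiment and at 0 to 1.45 in the Lama5 experiment (-2.91, edgeR adjusted p = 0.000583). Rgs1, which dampens chemokine receptor signalling, stood at 7.35, 16.4 and 10.5 against 1.05 to 3.06 (-2.31, edgeR adjusted p = 0.00038). Litaf, Nr4a1, Bhlhe40 and Xcl1 also fell, by 2.17, 1.85, 1.83 and 1.48 on the log2 scale. In 9 of the 10 residency genes with at least 30 counts, all 3 libraries of the Lama4 experiment were above all 4 of the Lama5 experiment, beside 15.2% of all such genes. The same held for 11 of 13 MHC class I genes and 9 of 18 pan-leukocyte genes. For T cell identity and adhesion genes it was 6 of 18 and 4 of 14. All 4 libraries of the Lama5 experiment were above all 3 of the Lama4 experiment in 5 of 12 circulating genes, beside 7.73%. Residency calls dropped to 4 by DESeq2 and with 3 selecting genes, and to 5 or 3 without Lama5 control sample 1 or 2, and circulating calls to 2 by DESeq2, to 3 among Cd3-positive cells alone and to 4 without either Lama5 control sample.

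The same genes can be counted per cell, as a description that restates the calls above. In the Lama4 experiment, 2 of 73 cells held only circulating genes (Ccr7, Lef1 or S1pr1), 42 only residency genes (Cxcr6, Cd69 or Rgs1), 25 both and 4 neither. In the Lama5 experiment the numbers were 41, 20, 13 and 7 of 81. With cells thinned to 1000 UMIs, cells with circulating or residency genes alone numbered 3 and 49 of 72, and 31 and 16 of 81. In the Lama5 controls the counts were 18 and 9 of 34 cells, and in the Tek-Cre:Lama5-/- samples 23 and 11 of 47. In each of the 3 libraries of the Lama4 experiment 14 cells held residency genes alone against 0 or 1 with circulating genes alone.

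Of 12 tested genes of cytotoxicity and effector cytokines, 6 fell in the Lama5 controls and none rose (median -1.36). Ifng, the cytokine interferon gamma, stood at 5.38, 6.20 and 3.28 CP10k in the Lama4 experiment and at 0.161 to 0.922 in the Lama5 experiment (-2.99, edgeR adjusted p = 7.1e-05), where the highest library had its 7 UMIs in 1 cell. Ccl5 stood at 77.1 and 36.8 CP10k in the Lama4 controls, 42.5 in the Lama4-/- library, and 10.1 and 20.7 in the Lama5 controls (-1.83, edgeR adjusted p = 0.000154), but 1 Tek-Cre:Lama5-/- sample, at 38.7, reached the range of the Lama4 experiment. Gzmb, granzyme B, fell by 2.55, Ccl4 and Ccl3, macrophage inflammatory chemokines, by 2.06 and 3.44, and Xcl1 as above, with Ccl3 held by microglia at 16.7 times its level here. Gzma did not pass (-0.72, edgeR adjusted p = 0.533). By DESeq2, 1 of these 6 calls was left.

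Of 11 tested NK receptor and factor genes, 5 fell (Klra9, Ncr1, Klrb1c, Klrk1 and Fcer1g, with Ncr1, an activating receptor of NK cells, at 1.61 and 2.41 against 0.659 and 0 CP10k) and none rose. None of the 5 calls was made by DESeq2 or when 3 selecting genes were required, and the NK share of T and NK cells was 34.8% ± 6.15 in the Lama4 controls and 17.1% ± 4.04 in the Lama5 controls (SD, n = 2 each). Cd8a and Cd8b1 fell by 2.86 and 1.76, and the CD8 share was 39.1% ± 12.3 in the Lama4 controls and 20.7% ± 1.01 in the Lama5 controls. Cd8a and Cd8b1 define the CD8 subset, and Ncr1, Klrb1c and Klrk1 are among the genes defining the NK subset. The shares are therefore not observations independent of the falls in these genes. With cells thinned to 1000 UMIs, the CD8 share was 21.7% and 18.2% in the Lama4 controls and 5% and 14.3% in the Lama5 controls. The NK share was then 34.8% and 22.7% against 20% and 7.14%. Among the tested chemokine and migration receptors, Ccr7 and S1pr1 rose, and those that fell included Cxcr6, Ccr2 (-2.34) and Gpr183 (-1.95). In the T cell identity group only Cd226, a co-stimulatory receptor, passed among 15 tested (-1.92). Of 12 tested MHC class I genes only Psmb8, an immunoproteasome subunit, passed (-1.11), although 12 of 12 fold changes were below 0 with a median of -0.53. No interferon-response gene passed among 5 tested.

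Levels of 5 of these genes within the CD8 T cells are given as a description, since the genes were chosen from the comparison above and the cells are few. CD8 cells of the Lama4 controls (18 cells, 109953 UMIs) held Rgs1 at 8.00 CP10k (6.42 to 9.86), Ifng at 3.46 (2.45 to 4.74) and Cxcr6 at 1.82 (1.11 to 2.81). In the 7 CD8 cells of the Lama5 controls (30654 UMIs) each of these was at 0 counts. Cd69 stood at 5.09 (3.85 to 6.61) against 0.326 (0.00826 to 1.82). Ccr7 stood at 0.182 (0.0220 to 0.657) against 3.91 (2.02 to 6.84). At 0 counts the upper limit is 1.20 CP10k. These 95% Poisson intervals pool 2 libraries, cover counting error only and do not compare the conditions.

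**Figure D3:**
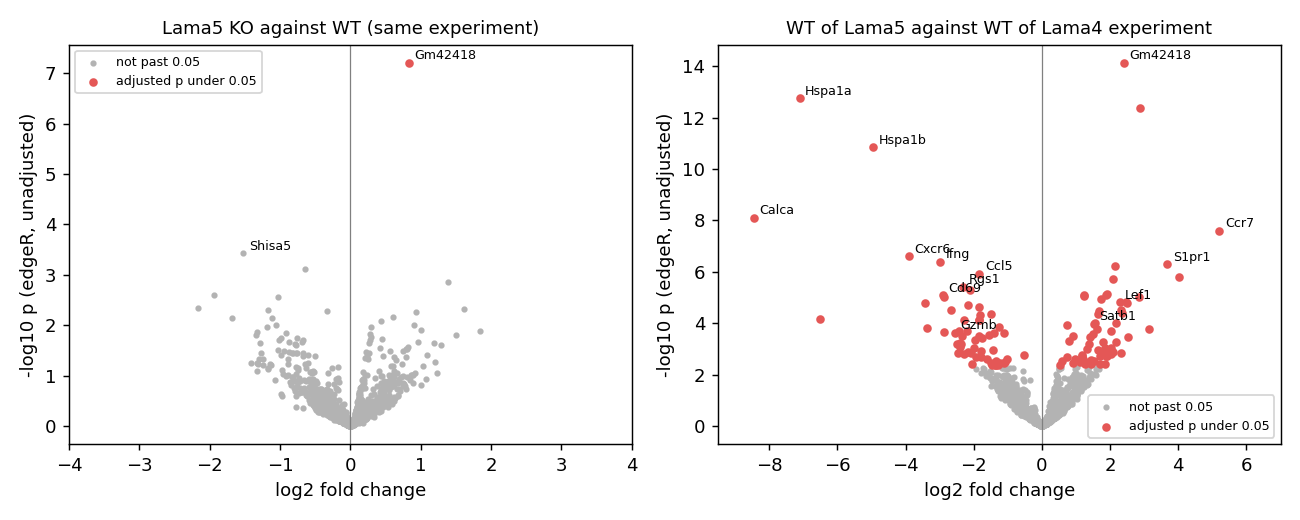
Log2 fold change against -log10 unadjusted p (edgeR) for each gene tested in T and NK cells, for Tek-Cre:Lama5-/- against its controls and for the Lama5 controls against the Lama4 controls, with genes of adjusted p below 0.05 in red. Only Gm42418 passes in the first panel, whereas 123 genes pass in the other.

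The heat-shock genes Hspa1a and Hspa1b were among the largest falls in the WT comparison, next to Calca (121 against 0 UMIs, at least 19.2-fold lower in the Lama5 controls when 3 counts over the group are taken as the floor). The Calca value rests on few cells: 74 of 76 UMIs in Lama4 control sample 1 came from 1 cell, and 42 of 45 in sample 2 from 2 cells. Hspa1a and Hspa1b, neighbouring genes on chromosome 17 that encode the inducible chaperone HSP70, are switched on by protein damage, heat or tissue handling. Hspa1a (34969190 to 34972156, minus strand, GRCm38) stood at 26.8 and 20.2 CP10k in the Lama4 controls, 15.3 in the Lama4-/- library, 0.263 and 0 in the Lama5 controls, and 0 and 0.350 in the Tek-Cre:Lama5-/- samples. The lowest library of the Lama4 experiment stood far above the highest of the Lama5 experiment. From 669 against 2 UMIs the ratio between the controls was 159 (counting interval 43.8 to 1314), and edgeR gave a log2 fold change of -7.11 ± 0.514 (SE, adjusted p = 1.2e-10). Hspa1b (34956436 to 34959238) stood at 23.3, 16.4 and 19.9 against 0.922, 0.178, 0 and 0.233 (-4.96, edgeR adjusted p = 4.9e-09). The coding sequences are near-identical and the reads of one gene can be counted for the other. Zfp36 and Nfkbia, feedback genes of inflammatory signalling, also fell, by 2.18 and 1.29, so that 4 of 17 tested genes known to respond to tissue dissociation passed, all lower. The other 13 did not pass, and 4 of the 17 fold changes were above 0 (median -0.56).

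Since reads of one gene can be counted for the other, their joint fall is not an independent observation for each gene. The promoters of both genes are shown as a description. Each is the 250 bases before the annotated start, 5′ to 3′ on the minus strand of chromosome 17, from RefSeq on GRCm38.p6: chr17:34972157-34972406 for Hspa1a and chr17:34959239-34959488 for Hspa1b. Capitals mark GAANNTTC, the core of the heat shock element that heat shock factors bind, which reads the same on both strands.
Hspa1a: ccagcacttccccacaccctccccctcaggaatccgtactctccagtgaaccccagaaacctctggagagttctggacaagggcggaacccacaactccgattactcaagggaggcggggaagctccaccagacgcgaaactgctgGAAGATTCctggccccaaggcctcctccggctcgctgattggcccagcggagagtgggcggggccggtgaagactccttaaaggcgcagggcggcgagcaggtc
Hspa1b: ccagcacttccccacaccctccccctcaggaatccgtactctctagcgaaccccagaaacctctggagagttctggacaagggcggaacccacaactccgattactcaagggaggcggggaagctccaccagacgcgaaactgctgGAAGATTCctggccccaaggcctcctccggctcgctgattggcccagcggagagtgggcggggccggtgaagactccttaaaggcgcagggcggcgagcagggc
The sequences are identical at 247 of 250 positions, and each holds the motif once, 104 bases before the start. The motif occurred in 2199 of 32851 promoter windows of this length, or 6.69%. A match describes the letters only.

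Hspa1a was higher in the Lama4 experiment in other cell classes too. Microglia and macrophages held it at 66.9 and 66.8 CP10k in the Lama4 controls and 57.3 in the Lama4-/- library, against 2.95 to 6.12 in the Lama5 experiment. Endothelial cells held 27.5, 29.2 and 19.5 against 6.96 to 9.01. Of the other transcripts that separated the experiments, Gm42418 and AY036118 rose by 2.42 and 2.87 in the Lama5 controls. Transcripts of other cells were low but not at 0 in the T and NK cells, and their levels also differed between the experiments. The summed level of 12 microglia and macrophage genes was 4.30 to 4.70 CP10k in the Lama4 experiment and 2.45 to 2.77 in the Lama5 experiment, that of 10 endothelial genes 4.70 to 6.89 against 2.74 to 4.81, and that of 8 oligodendrocyte genes 1.64 to 4.78 against 5.53 to 6.85. Bsg, a surface protein gene listed here in the endothelial group, fell by 2.44, but endothelial cells held it at 59.0 times the level seen here. The part of free RNA, of tissue handling and of depth in the differences between the experiments was not tested.

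**Figure D4:**
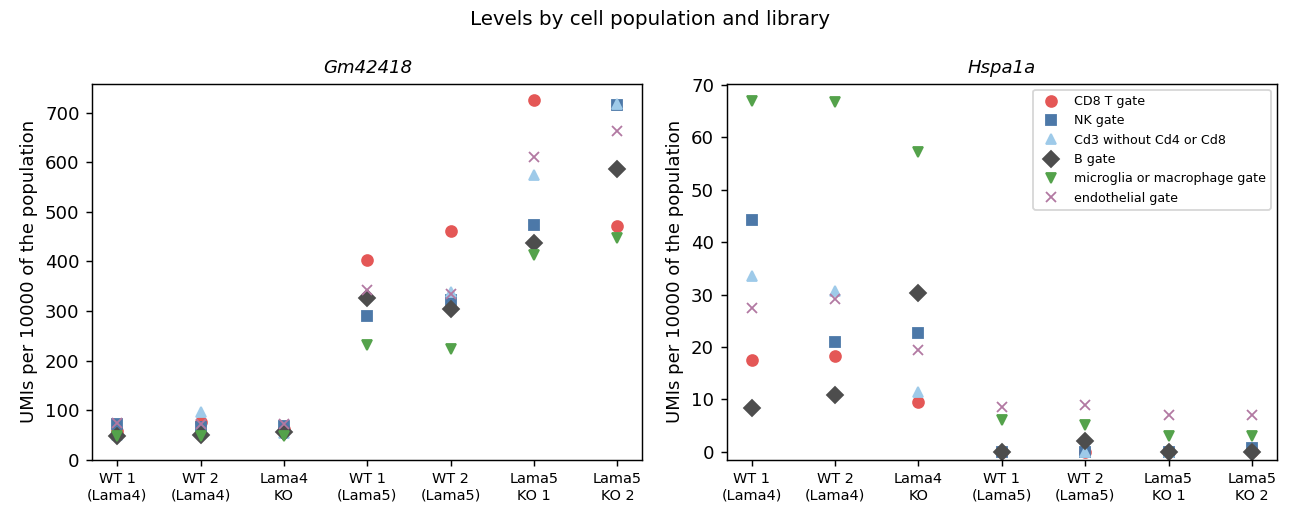
Gm42418 and Hspa1a in 3 subsets of T and NK cells and in B cells, microglia or macrophages and endothelial cells of each library, in UMIs per 10000 of the summed counts. Gm42418 is highest in the Tek-Cre:Lama5-/- samples (611 and 663 in endothelial cells), and Hspa1a is higher in all 3 libraries of the Lama4 experiment.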

How the data were processed

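Cortical cells of 8 samples were profiled by droplet single-cell RNA-seq (10x 3′ chemistry). The deposited matrices hold UMI counts per gene and cell for 31053 gene IDs, made by the authors with Cell Ranger 3.1.0 per the file headers and mapped to mm10 per the submitters' processing notes, which also name Seurat 3.1. Counts were used as deposited. T and NK cells, the gene lists and the named genes were chosen with earlier results of these data known. Counts of the selected cells were summed per library and tested with edgeR 4.0.16 in R 4.3.3 (filterByExpr, TMM, glmQLFTest, Benjamini-Hochberg adjustment over all genes tested, threshold 0.05) on the 4 libraries of each comparison; DESeq2 1.42.0 was an alternative. Shares were compared by exact permutation over libraries, with 95% Clopper-Pearson intervals from scipy 1.17.1. Counts of replicates differed by more than Poisson noise of UMIs (chi-square per degree of freedom 1.62 to 2.55 in the 3 groups with 2 libraries). This statistic takes each UMI as an independent draw, while each library sums only 14 to 27 cells. It therefore cannot separate differences between libraries from the sampling of cells.

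No doublet caller was run; limits on markers of other cell types were applied, and cells above 2 times the median UMI total were left out as an alternative. Named genes were those of the lists with the most counts or past the test. For the Lama5 deletion, up to 12 per direction past the test over all genes could be added. These could not be selecting genes or be over 10 times higher in another cell class. In the WT comparison mostly genes of the lists were named, and other genes past the test were given only as examples. For Lama4-/- the 12 largest by the rule of size could be named. Of these, Ddx17, Pim3, Samsn1, Eprs and Nr4a3 are not described above (log2 ratios -2.65, -2.22, -2.18, -1.97 and -1.81). Gzma (1.02) lies outside these 12 and was named as a gene of the lists. Shisa5, Bcl2, Ifrd1 and Bsg fall outside the rule and were named after their values were seen. On simulated data the Lama5 comparison recovered 58.6% of genes changed by 1 and 98.7% of those changed by 2 on the log2 scale. The WT comparison recovered 40.9% and 90.1%. Unchanged genes made up 3.05% of the calls in the Lama5 simulation and 6.35% in the WT simulation. Every simulated gene had the same dispersion, and only genes past the filter on low counts were changed. These shares therefore do not give the power for the measured genes. Gene positions are from GENCODE M21.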

Additional observations from a re-analysis of the deposited data

Results flagged for a closer look

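Klra9, an inhibitory NK receptor gene, moved in opposite directions in the 2 experiments: the mutant mean was 0.489 CP10k above the control mean in the Lama5 experiment, and the mutant library -0.985 CP10k from the control mean in the Lama4 experiment. Every mutant library lay on one side of its controls in each case, and the difference between the experiments was not tested. The values rest on 18, 13 and 2 UMIs in the Lama4 experiment (2 controls, then the mutant) and on 0, 0, 1 and 7 in the Lama5 experiment (2 controls, then 2 mutants). It was the only one of 24 results followed in both experiments to do so.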

How the results depend on the processing

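The difference in the NK share between Tek-Cre:Lama5-/- and control samples, -0.385 percentage points, was 0 with the limits on other cell types halved, 3.64 after thinning to 1000 UMIs, and -3.24 to 2.47 with 1 library left out in turn. The count of genes called for the Lama5 deletion (1) became 5 with at least 700 genes per cell, 0 with 3 of the 6 genes, 3 with halved limits, 2 without cells of high UMI totals, 6 with no filter on low counts, and 2 to 8 with 1 library left out. For alternatives chosen after seeing the data, it was 3 among Cd3-positive cells and 0 without Gm42418 and AY036118. The 123 genes called between the WT controls became 73 with 3 of the 6 genes, 74 among Cd3-positive cells (added later), 33 by DESeq2, and 46 to 112 with 1 library left out. The 20 genes past the rule of size for Lama4-/- became 11 with 3 of the 6 genes and 48 to 55 with 1 control left out. Fcer1g changed sign between the WT controls among Cd3-positive cells (0.43). With sample number as a replicate block, 0 genes were called for the Lama5 deletion and 109 between the WT controls; the numbers do not pair the samples, since same-numbered samples deviated together with r = 0.0266 and -0.0635 across 866 and 1395 genes. Over 43 named genes of the WT comparison, 580 of 710 alternative fits kept the call and direction, 129 lost the call and 1 reversed. The cause of these changes was not tested. Between 14 and 27 cells per library limit all statements, and scarce genes were not measurable.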

Other observations

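The summed level of 12 proliferation genes was higher in 1 library, at 19.1 CP10k in Tek-Cre:Lama5-/- sample 2 and 6.93 to 8.34 in the other 6 libraries. Stmn1 had 31 UMIs in Tek-Cre:Lama5-/- sample 2 against 3 to 11 elsewhere. In the WT controls, cells outside all 4 excluded types held Stmn1 at 16.4 times the level in T and NK cells. Mki67 was detected in 1 of 26 cells of Tek-Cre:Lama5-/- sample 2, in 2 of 27 of the Lama4-/- library and in no cell of the other libraries. In Tek-Cre:Lama5-/- sample 2, 1 cell held at least 3 UMIs over Mki67, Top2a, Birc5 and Pclaf, as did 1 cell each in Lama4 control sample 1 and Lama5 control sample 1. Cells of gamma-delta type were rare, with at most 2 per library holding 3 or more UMIs of Trdc, a gamma-delta receptor constant region. Cd4 transcripts numbered 0 and 0 in the Lama4 controls, 2 in the Lama4-/- library, 4 and 4 in the Lama5 controls, and 1 and 2 in the Tek-Cre:Lama5-/- samples.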
